A study of Gallus gallus with 40 samples.

Results

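White striping (WS) is a defect of broiler breast muscle in which white lines run along the fibres, and it is graded by the number and thickness of these lines. Gene expression in pectoralis major with severe WS was compared with that in pectoralis major with moderate WS. The arrays were chosen by their titles, which gave 10 of the 40 arrays of the series, with severe WS replicates 1 to 4 and moderate WS replicates 1 to 6. All 10 birds were male commercial broilers, which the labels call ROSS, and the methods give their age as 7 weeks and say that birds with wooden breast were excluded. Another label field of the same arrays places the level under wooden breast and writes "no" under white striping, so that the grouping rests on the title, the description and the source name. According to the methods, every severe WS bird that had been found was used, whereas the moderate WS birds were drawn at random from a larger pool. The RNA of a single bird was hybridized to each one-color Agilent chicken array. A further 7 arrays with mild WS entered the statistical fit but are not described. The question addressed was which genes and gene families differ once WS goes beyond the moderate level.

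As background, the pectoralis major of broilers is built almost entirely of fast glycolytic fibres. Lesions of this muscle are known for loss of fibres, infiltration by macrophages, regeneration from satellite cells and replacement by fat and by collagen-rich connective tissue made by fibroblasts. Collagens, fibronectin and other matrix proteins are made by fibroblasts, complexes I to V of the inner mitochondrial membrane carry out oxidative phosphorylation, and their mitochondrially encoded subunits are translated by the mitochondrial ribosome. Histones package DNA, interferon-stimulated genes are switched on by interferons, as in viral infection, and heat shock proteins refold damaged proteins.

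After the exclusion of dim spots, 33105 probes were tested, and of these the probes with a gene symbol stood for 9434 genes, each represented by its brightest probe. Values are quantile-normalized intensities in arbitrary units, and differences are log2 of severe over moderate WS with the slide as a factor. No probe passed a limma adjusted p of 0.05 together with an absolute fold change of 1.2, and the smallest adjusted p was 0.403. None passed at an adjusted p of 0.2 either. At an unadjusted p of 0.05 or less there were 2787 probes, where 1655 would be counted on average if no probe changed. Probes vary together across the same birds, so that such a count can lie far from this average without any change. With severe WS replicates 1 and 2 left out, and so fewer arrays, it was 1410 of 34063 probes. No gene below is therefore described as changed, and adjusted p values are those of limma over all probes tested. Together with the fold criterion, the unadjusted threshold was passed by 1574 probes (4.75%) that were higher and 1124 probes (3.4%) that were lower in severe WS. With scaling to the 75th percentile in place of quantile normalization, 2137 probes were higher and 807 lower. The test per probe named in the methods, run without the batch step on the 10 arrays, also called no probe.

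Among the 9434 genes, 4621 (49.0%) were higher in severe WS and 4813 lower, and the median difference was -0.0050 on the log2 scale. The same threshold was passed by 392 genes (4.16%) that were higher and 305 genes (3.23%) that were lower. In 85 genes (0.901%) all 4 severe WS birds lay above all 6 moderate WS birds, and in 55 genes (0.583%) all lay below. All 4 severe WS birds lay above the moderate mean of their own slide for 1012 genes (10.7%) and below it for 813 genes (8.62%). These shares are the background against which the counts in each gene family are read. The median SE of a gene's difference was 0.179. Members of a family were measured in the same birds and vary together, and no family was tested.

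The severe WS arrays lay in the first row of their slides and the moderate WS arrays in the second, so that severity and row cannot be told apart. On the same slides 1 and 2, the arrays labelled non-WS lay in the first row and mild WS arrays in the second. The methods say that no bird without WS was found, so that what these first-row arrays hold is not settled, and a difference taken from them also contains any difference between their birds and the mild WS birds. With this limit, the non-WS minus mild WS difference is given as the row difference, for every family in the plot of list medians and for many in the text. Across genes it correlated with the severe minus moderate difference fitted on slides 1 and 2 alone (Pearson's r = 0.32, Spearman's rho = 0.32, arrays of other birds on the same slides). Moderate WS replicates 5 and 6, on other slides, are not in that fit. Median processed signals lay between 78.9 and 120 on severe WS arrays and between 106 and 259 on moderate WS arrays, and the share of spots well above background was 67.7% to 72.7% on severe WS arrays, against 71.2% to 77.1% on moderate WS arrays. Markers of fast pectoralis fibres were bright in every bird, with summed intensities of 1057200 to 1129870 in severe WS and 1051930 to 1333370 in moderate WS over the 8 of 15 markers that were tested. The fast fibre marker PVALB did not pass the signal filter. Since whole muscle was measured, fewer cells of a type and less RNA per cell cannot be told apart.

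The plot of list medians orders 80 gene families by their severe minus moderate difference and sets the row difference of the same genes beside each. Most medians lay within 0.1 of 0 on either side, and the families described next are mainly those at the ends. They were chosen with these values in view, and for this reason they are given as counts and medians without a test.

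**Figure D1:**
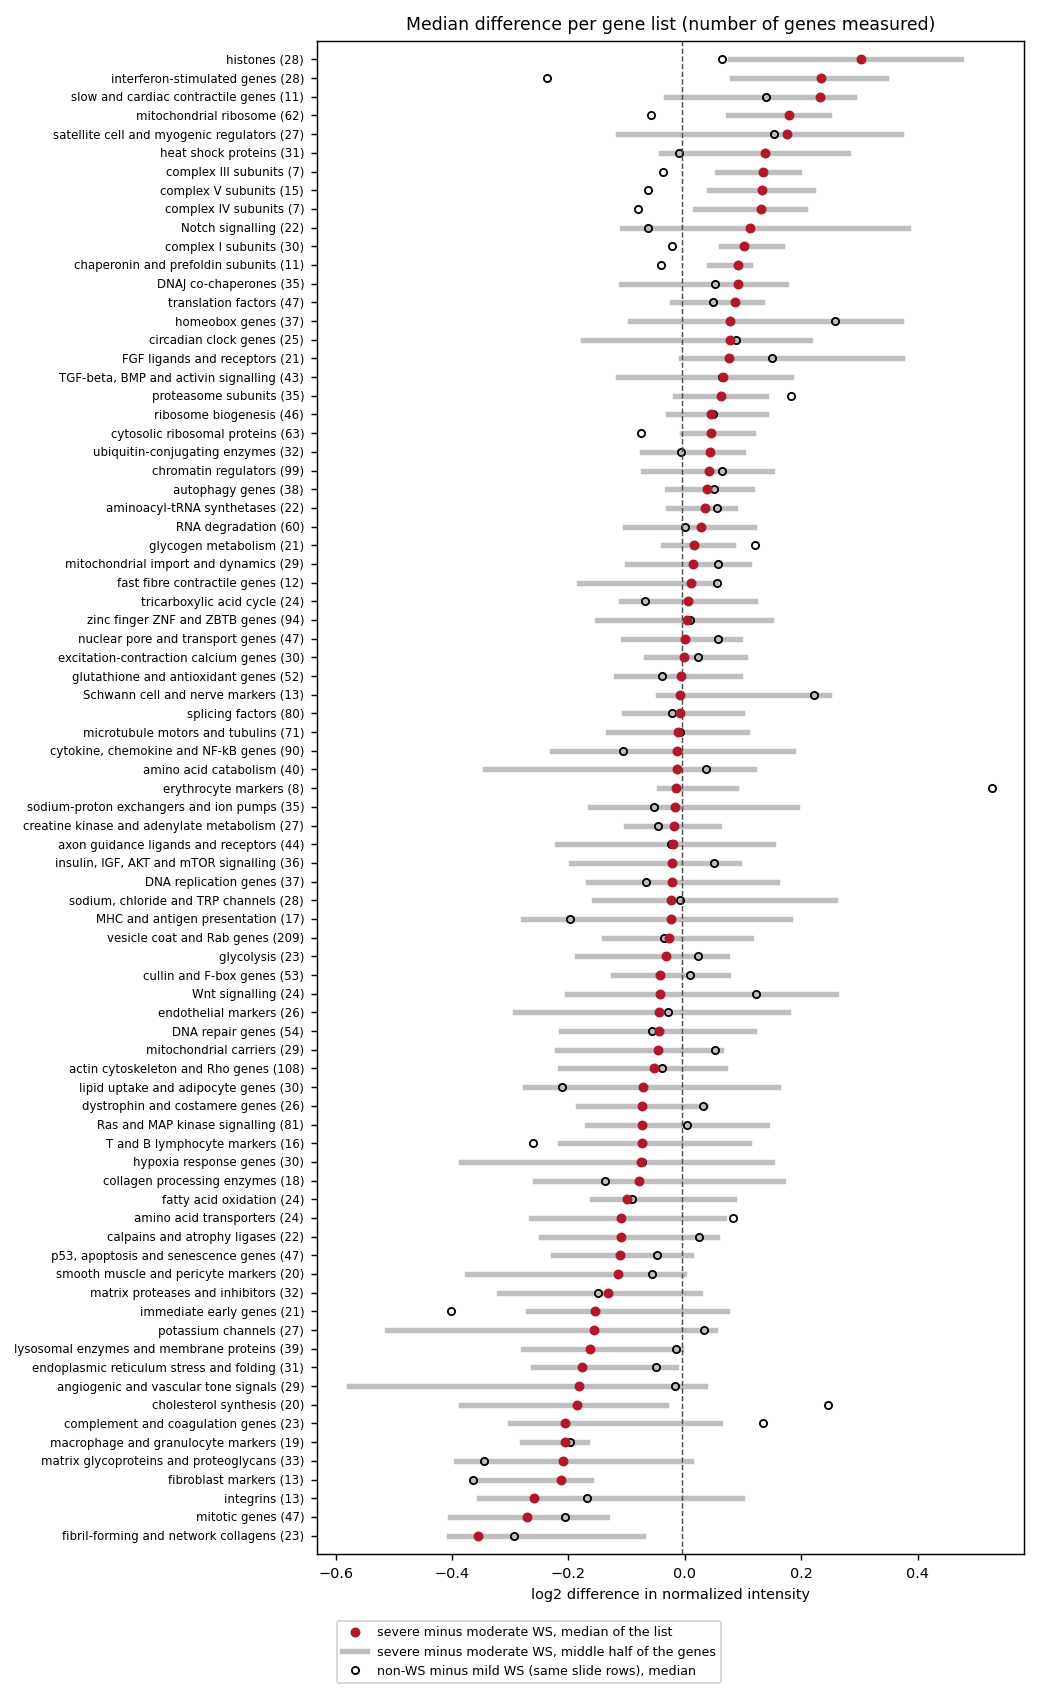
Median log2 difference, severe minus moderate WS, over the measured genes of each gene list (filled points, with bars from the lower to the upper quartile of the genes) and median non-WS minus mild WS difference of the same genes on slides 1 and 2, the row difference (open circles). Histones lie highest, at 0.30, and collagens lowest, at -0.36.

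The extracellular matrix stood lower in severe WS. Of 23 measured collagens, 19 were lower and 4 higher, with a median difference of -0.36 against -0.0050 over all genes. Only 2 of them passed the unadjusted threshold, all lower (8.70%, beside 3.23% of all genes). In all 4 severe WS birds 5 of the 23 lay below the moderate mean of their slide, where 8.62% of all genes did. COL3A1, which forms the fine fibrils between muscle fibres and is the brightest of them, measured 64162, 91220.1, 107479 and 106840 in the severe WS birds, against a lowest, median and highest value of 105588, 116076 and 168789 in moderate WS. Its difference was -0.40 ± 0.22 (SE; adjusted p = 0.651), and severe WS replicates 3 and 4 reached into the moderate range. The row difference of COL3A1 was -0.51. COL4A5, a chain of the collagen network in basement membranes, had 835, 859, 584 and 809.9 in severe WS and 825, 1096 and 1870 (lowest, median and highest) in moderate WS. This was a difference of -0.73 ± 0.25 (adjusted p = 0.538), whereas the row difference of this gene went the other way, at 0.71. The basement membrane chains COL18A1 (-0.39 ± 0.17) and COL4A1 (-0.33 ± 0.16) were also on the lower side, and in both it was severe WS replicates 1 and 2 that were low. Their row differences were -0.27 and -0.30. COL8A2 and COL15A1, named here for their values, were the members on the higher side beyond 0.1, at 0.39 and 0.43.

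Matrix glycoproteins and proteoglycans followed the collagens, with 24 of 33 lower and a median of -0.21. The unadjusted threshold was passed by 3 on the lower side (9.09%, beside 3.23% of all genes) and 0 on the higher side (beside 4.16%). FN1, the cell-adhesive glycoprotein fibronectin, measured 15748, 22526, 26239.5 and 30730.2 in severe WS birds, against 23552, 32608 and 85365 (lowest, median and highest) in moderate WS birds, a difference of -0.63 ± 0.27 (adjusted p = 0.586). The level was lowest in severe WS replicate 1. FBLN1, the matrix protein fibulin 1, had 414, 469, 419 and 498 in severe WS and 535, 607 and 1747 in moderate WS. Every severe WS value lay below every moderate WS value, with a difference of -0.57 ± 0.24 (adjusted p = 0.582). CCN2, a matricellular growth factor of connective tissue, averaged 2234 in severe WS and 2427 in moderate WS, with -0.40 ± 0.18 on the log2 scale. The row difference was -0.41 for FN1, -0.53 for FBLN1 and -0.75 for CCN2. MMP15, a membrane-bound matrix metalloprotease, stood on the other side. It had 445, 496, 501 and 407 in severe WS and 231, 333 and 370.1 in moderate WS, with no overlap and a difference of 0.41 ± 0.15 (adjusted p = 0.542).

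Markers of cells that make the matrix lay on the same side. Of the 13 fibroblast markers 12 were lower, with a median of -0.21, which was -0.07 without severe WS replicate 1 and -0.42 without severe WS replicate 2. Several of these markers are collagens or matrix glycoproteins counted above, among them FBLN1, DPT and the median gene DCN. The list is therefore no separate evidence on the cells. The summed intensity of the defining markers COL1A2, COL3A1, DCN, LUM and PDGFRA lay between 98914.5 and 166404 in severe WS and between 148974 and 280620 in moderate WS. The bright COL3A1 described above is part of this sum. Integrins, the receptors by which cells grip the matrix, had a median of -0.26 over 13 genes, with 8 lower, beside a row difference of -0.17. The beta 1 subunit ITGB1, shared by most collagen and fibronectin receptors, measured 10689, 11157, 13615 and 12754 in severe WS and 12882, 13318 and 15560.5 (lowest, median and highest) in moderate WS. The difference was -0.28 ± 0.11 (adjusted p = 0.563), and only severe WS replicate 3 lay above the moderate median. The integrin median went to -0.01 without moderate WS replicate 3, to -0.08 without severe WS replicate 1 and to -0.06 without severe WS replicate 3.

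The low matrix level was lowest in severe WS replicates 1 and 2, and the row difference had the same sign. The level of the collagens in each bird, taken as the median of its genes after the slide effect was removed and set against the fitted moderate level, was -0.69, -0.32, -0.18 and -0.11 in severe WS replicates 1 to 4, against -0.21, -0.0028 and 0.29 (lowest, median and highest) in moderate WS. The collagen median was -0.20 without severe WS replicate 1 and -0.09 without severe WS replicates 1 and 2. For matrix glycoproteins the corresponding medians were -0.06 and -0.01. The row difference of the same genes was -0.29 for collagens, -0.35 for matrix glycoproteins and -0.36 for fibroblast markers. The part of the row in these differences was not tested.

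**Figure D2:**
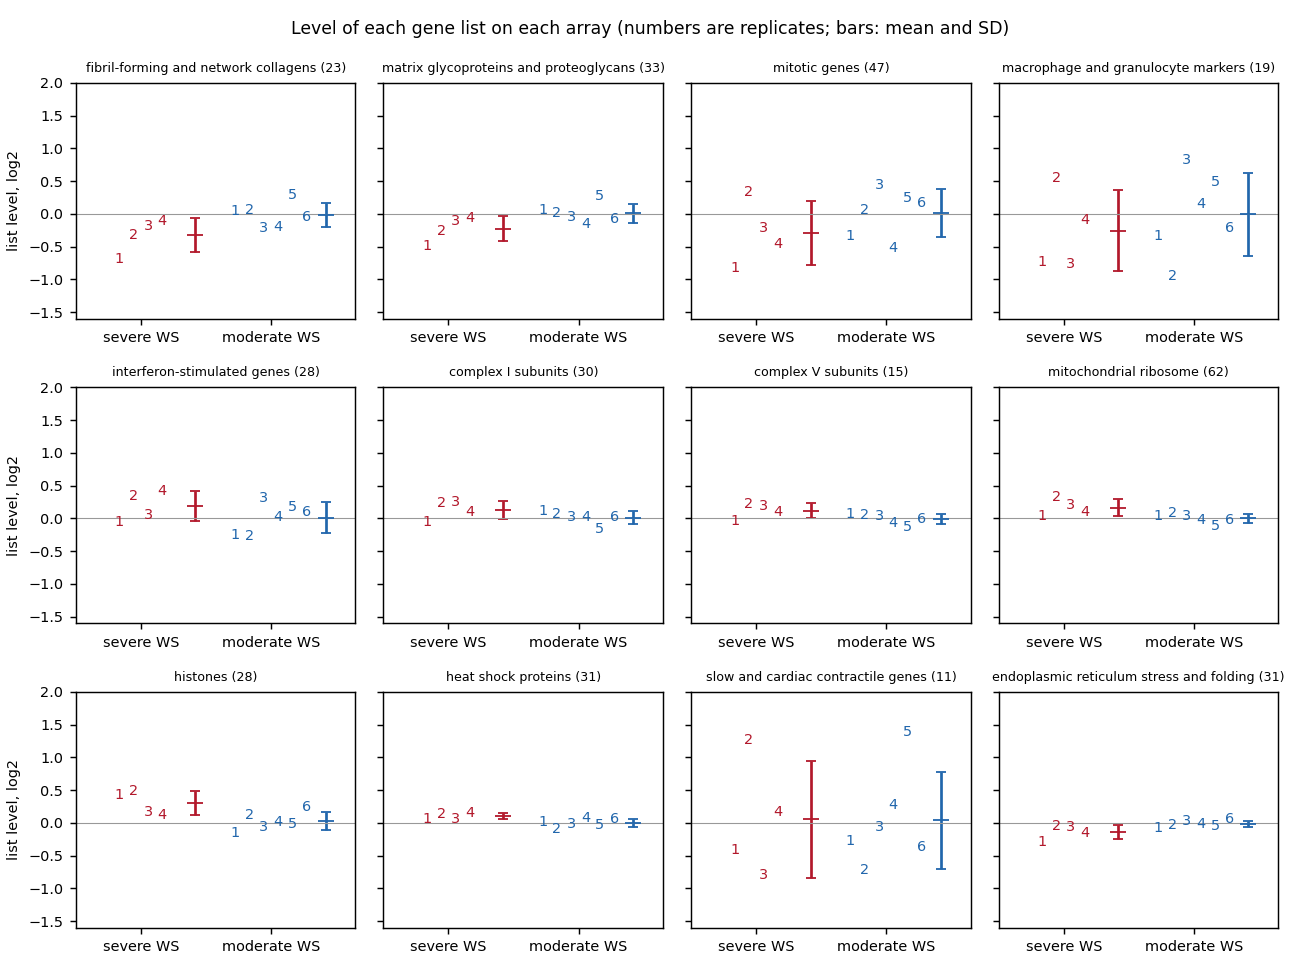
Level of 12 gene lists in each bird, as the median log2 deviation of the list's genes from the fitted moderate WS level after removal of the slide effect, with severe WS birds left of moderate WS birds, numbers for replicates and bars for the mean and SD of each group. Collagens were lowest in severe WS replicate 1, and the mitotic and macrophage lists spread more between birds of one group than between the groups.

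Genes of mitosis were lower as a group. Of 47 mitotic genes, 42 were lower in severe WS, and the median difference was -0.27. Only 3 passed the unadjusted threshold as lower (6.38%, beside 3.23% of all genes) and 1 as higher (2.13%, beside 4.16%). BUB1B, a kinase of the spindle checkpoint, had 283, 582, 486 and 433 in severe WS and 479.7, 659 and 1186 (lowest, median and highest) in moderate WS. Its difference was -0.77 ± 0.25 (adjusted p = 0.532), and the row difference was 0.07. DLGAP5, which acts in spindle assembly, measured 729.6, 1074, 1001 and 979 in severe WS and 927, 1087 and 1513 in moderate WS, a difference of -0.42 ± 0.18 (adjusted p = 0.582). CCND1, the cyclin that drives passage through the first gap phase, went the other way. It had 3129, 3819, 3265 and 3364 in severe WS and 1801, 2391 and 2607 in moderate WS, which did not overlap, with a difference of 0.39 ± 0.16 (adjusted p = 0.582). The row difference was -0.44 for DLGAP5 and 0.24 for CCND1. The brightest member, CCND3, a related cyclin, differed by -0.01 ± 0.16.

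The mitotic program varied between birds of each group. Its level was -0.82, 0.33, -0.22 and -0.47 in severe WS replicates 1 to 4 and -0.53, 0.11 and 0.44 (lowest, median and highest) in moderate WS. Severe WS replicate 2 was the exception among the severe birds, and the median became -0.52 without it and -0.12 without severe WS replicate 1. The row difference was -0.21, and its part was not tested. Genes of DNA replication had 17 of 37 members higher and a median of -0.02, which took either sign with single arrays left out (-0.12 to 0.09).

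Histone genes formed the family with the highest median. Of 28 measured histone genes, 23 were higher in severe WS, and the median difference was 0.30. The unadjusted threshold was passed by 7 as higher (25%, beside 4.16% of all genes) and by none as lower. In all 4 severe WS birds 15 of the 28 lay above the moderate mean, where 10.7% of all genes did. HIST1H46L6, an H4 gene, had 5766, 5557, 4778 and 3173 in severe WS and 2011, 2699 and 10436 (lowest, median and highest) in moderate WS. The difference was 0.83 ± 0.30 (adjusted p = 0.555), with the highest value of all in a moderate WS bird. H2AFJ, an H2A variant, measured 8739, 8684, 8229 and 7696 in severe WS and 5588, 6906 and 11104 in moderate WS, a difference of 0.36 ± 0.12 (adjusted p = 0.539). HIST2H3A, a dim H3 gene, differed by 0.60 ± 0.24, and H3F3C, the brightest member, by 0.06 ± 0.10. The clustered histone genes are near-identical copies that a probe may not tell apart, so that single members are uncertain. Labelling was primed with oligo(dT), and most transcripts of the clustered histone genes are known to end without a poly(A) tail.

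The histone level was 0.42, 0.48, 0.17 and 0.11 in severe WS replicates 1 to 4, against -0.15, -0.01 and 0.24 in moderate WS. Severe WS replicates 1 and 2, both on slide 1, were the highest of the 10 birds. Leaving out any single array gave medians between 0.25 and 0.36, while leaving out severe WS replicates 1 and 2 together gave 0.092. The row difference was 0.06.

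Genes of mitochondrial protein synthesis lay mostly on the higher side. Of 62 proteins of the mitochondrial ribosome, 52 were higher in severe WS (83.9%, beside 49.0% of all genes), with a median difference of 0.18. The unadjusted threshold was passed by 6 as higher (9.68%, beside 4.16% of all genes) and none as lower. In all 4 severe WS birds 17 genes lay above the moderate mean and 1 below it, where 10.7% and 8.62% of all genes did. MRPL50 and MRPL16, the second named for this reason, were the 2 that lay higher without overlap between the groups, beside 0.901% of all genes. MRPL50, of the large subunit, had 11398, 11204, 11549 and 9244 in severe WS and 6619, 7431 and 9228 (lowest, median and highest) in moderate WS. Its difference was 0.49 ± 0.14 (adjusted p = 0.487), with severe WS replicate 4 just above the highest moderate WS bird. MRPS33, of the small subunit, measured 11688, 12737, 13215 and 9914 in severe WS and 6802, 7830.1 and 11114 in moderate WS, a difference of 0.39 ± 0.15 (adjusted p = 0.559), although its other probes lay on the opposite side. MRPS18C, also of the small subunit, differed by 0.31 ± 0.12. MRPL9, the brightest member, had 49107, 55306, 45055 and 41412 in severe WS and 31206, 40337 and 43289.8 in moderate WS, with 0.29 ± 0.13 on the log2 scale. The row difference of the list was -0.06, and its median stayed between 0.10 (without severe WS replicate 2) and 0.22 when single arrays were left out.

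Subunits of the respiratory complexes were slightly higher. In complex I 27 of 30 subunits, in complex III 6 of 7, in complex IV 5 of 7 and in complex V 12 of 15 were higher in severe WS. The medians were 0.10, 0.13, 0.13 and 0.13 for complexes I, III, IV and V. Without severe WS replicate 2 they were 0.08, 0.07 and 0.05 for complexes III, IV and V, and without severe WS replicate 1 they were 0.19 and 0.21 for complexes I and III. ATP5D, the delta subunit of ATP synthase, measured 54754, 61566, 52154 and 53009 in severe WS and 42205, 48981 and 56909.7 (lowest, median and highest) in moderate WS, a difference of 0.31 ± 0.12 (adjusted p = 0.574). The brightest members hardly differed, with NDUFS5 at 0.06 ± 0.14 and ATP5B, the catalytic beta subunit of ATP synthase, at -0.03 ± 0.10. No subunit of these complexes was without overlap between the groups. Complex I levels were -0.05, 0.23, 0.24 and 0.09 in severe WS replicates 1 to 4 and -0.17, 0.02 and 0.11 in moderate WS, so that the first severe WS bird stood below the moderate median. The row differences were -0.02, -0.04, -0.08 and -0.06 for complexes I, III, IV and V.

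Other parts of energy metabolism had medians near or below 0. The median was 0.01 over 24 genes of the tricarboxylic acid cycle, -0.10 over 24 genes of fatty acid oxidation and -0.03 over 23 genes of glycolysis, the last at 0.14 with 75th percentile scaling. With single arrays left out these medians ranged from -0.04 to 0.04, from -0.13 to -0.04 and from -0.05 to 0.01. In the same order, the row differences were -0.07, -0.09 and 0.02. LDHA, the lactate dehydrogenase subunit of glycolytic muscle, had 109751, 100562, 117660 and 80164 in severe WS and 110825, 130368 and 188447 (lowest, median and highest) in moderate WS. The difference was -0.44 ± 0.22 (adjusted p = 0.622), with severe WS replicate 4 lowest, and the other tested probe of LDHA lay on the opposite side. PFKFB3, whose product makes the main activator of phosphofructokinase, ranged from 953 to 20156 in severe WS and from 635 to 41176 in moderate WS, and its difference of -1.56 ± 0.86 (adjusted p = 0.653) stood beside a row difference of -1.76. The mitochondrial ADP/ATP carriers SLC25A5 (-0.36 ± 0.16) and SLC25A6 (-0.43 ± 0.20) were on the lower side, and SLC25A39, a carrier for mitochondrial glutathione, on the higher side (0.33 ± 0.14).

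With quantile normalization the cytosolic machinery shifted less. Of 63 cytosolic ribosomal proteins 43 were higher, with a median of 0.04. In all 4 severe WS birds 13 lay above the moderate mean and 1 below it, where 10.7% and 8.62% of all genes did. With 75th percentile scaling the median of these proteins was 0.290, beside 0.245 for the mitochondrial ribosome and 0.03 over all genes. RPS12, of the small subunit, measured 86878, 79706, 78044 and 79276 in severe WS and 44152, 63874 and 72467 (lowest, median and highest) in moderate WS, without overlap and with a difference of 0.25 ± 0.09 (adjusted p = 0.542). Translation factors had a median of 0.09 and proteasome subunits one of 0.06. Row differences were -0.08 for the cytosolic ribosomal proteins, 0.05 for translation factors and 0.18 for proteasome subunits. Without severe WS replicate 2 the medians were 0.00047 for the cytosolic ribosomal proteins, 0.01 for translation factors and 0.01 for proteasome subunits, and without severe WS replicates 1 and 2 the last pair turned to -0.01 and -0.03.

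By their medians, the heat shock and DNAJ lists lay on the higher side and the list of the endoplasmic reticulum on the lower, with members on both sides in each. Among 31 heat shock proteins and their partners 19 were higher, with a median of 0.14 (0.09 without moderate WS replicate 2), and among 35 DNAJ co-chaperones 24 were higher, with a median of 0.09 (0.05 without severe WS replicate 3). HSPBAP1, which binds the small heat shock protein HSPB1, had 1203, 1016, 769 and 974 in severe WS and 536, 723 and 817 (lowest, median and highest) in moderate WS, a difference of 0.51 ± 0.17 (adjusted p = 0.534). HSPB1 itself, the brightest member, differed by -0.04 ± 0.12, and HSPD1, the chaperonin of the mitochondrial matrix, by 0.28 ± 0.14. HSPA9, another mitochondrial chaperone, named here for its value, differed by -0.10 ± 0.12. DNAJC15, a co-chaperone of the mitochondrial inner membrane, measured 3731, 7379, 3739 and 5131 in severe WS and 2478, 3326 and 3720.5 in moderate WS. The groups did not overlap, and the difference was 0.59 ± 0.22 (adjusted p = 0.559). PFDN5, a subunit of prefoldin, which hands unfolded proteins to the cytosolic chaperonin, had 12602, 15640, 10798 and 10786 in severe WS and 6708, 8572 and 12737 in moderate WS, a difference of 0.54 ± 0.15 (adjusted p = 0.487). CCT3, a subunit of that chaperonin, differed by 0.33 ± 0.12. The row difference was -0.01 for the heat shock list and 0.05 for the DNAJ list.

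In the endoplasmic reticulum list, 23 of 31 genes of folding and stress were lower, with a median of -0.18. The unadjusted threshold was passed by 1 as lower, a share of 3.23%, the same as over all genes. In all 4 severe WS birds 6 of the 31 lay below the moderate mean, where 8.62% of all genes did. CANX, a lectin chaperone of new glycoproteins, measured 994, 1678, 1216 and 1299.7 in severe WS and 1290.3, 1635 and 2312 (lowest, median and highest) in moderate WS, a difference of -0.42 ± 0.19 (adjusted p = 0.592). SEL1L, of the machinery that exports misfolded proteins for degradation, differed by -0.24 ± 0.10, and ERN1, a sensor of unfolded proteins, by -0.29 ± 0.15. ATF4, a transcription factor of the stress response and the brightest member, stood on the other side at 0.26 ± 0.15. So did the chaperone genes HSPA5 (0.13 ± 0.17) and DNAJB11 (0.25 ± 0.15), named here for their values. The row difference was -0.05. Of 20 genes of cholesterol synthesis, made on the same membranes, 16 were lower, with a median of -0.19 and a row difference of the opposite sign, 0.25. Without severe WS replicate 1 the medians of the endoplasmic reticulum and cholesterol lists were -0.10 and -0.10. CYP51A1, the lanosterol demethylase, had 1671, 2157, 2521 and 2368 in severe WS and 2381, 2858 and 4450.4 in moderate WS, a difference of -0.45 ± 0.21 (adjusted p = 0.593).

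**Figure D3:**
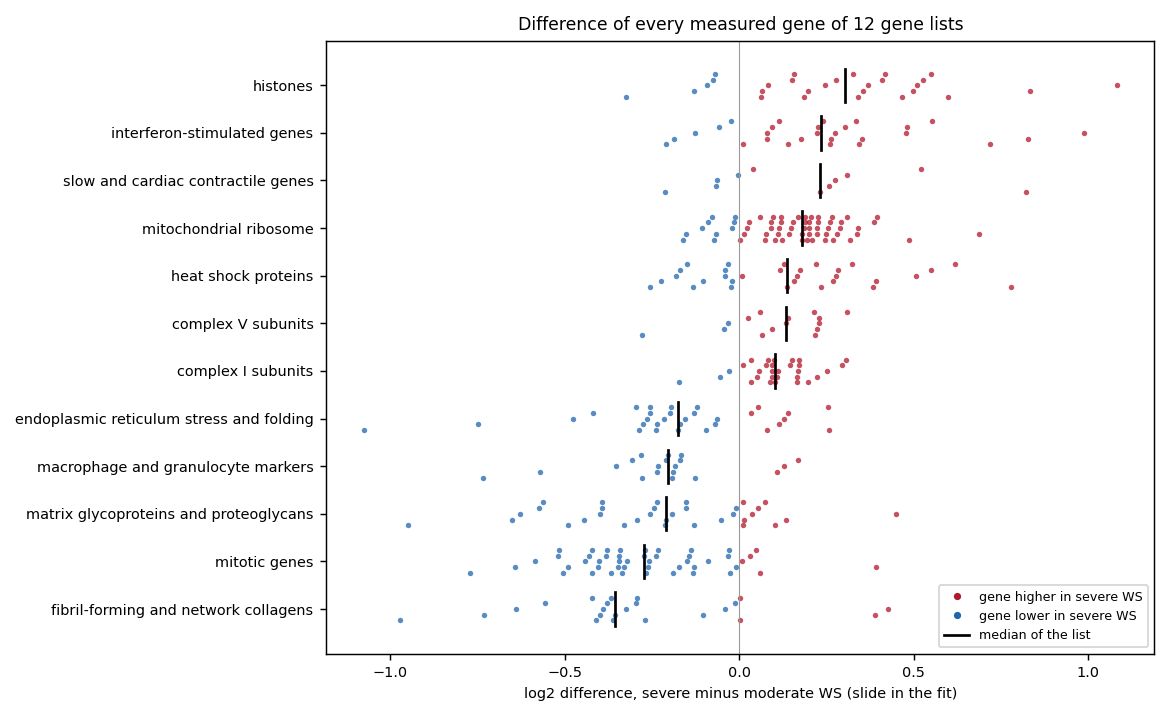
Log2 difference, severe minus moderate WS, of every measured gene in 12 lists (points, coloured by direction), with the list median as a bar. Most genes of the mitochondrial ribosome, complex I and the histones lie above 0 and most collagens and mitotic genes below it.

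Interferon-stimulated genes lay on the higher side and macrophage markers on the lower. Of 28 interferon-stimulated genes 23 were higher in severe WS, with a median of 0.23. In all 4 severe WS birds 9 of the 28 lay above the moderate mean, where 10.7% of all genes did, but none passed the unadjusted threshold in either direction. EIF2AK2, the kinase PKR that senses double-stranded RNA, had 4381, 5777, 3992 and 4056 in severe WS and 2481, 3501 and 4157 (lowest, median and highest) in moderate WS, a difference of 0.35 ± 0.17 (adjusted p = 0.612). Only severe WS replicates 1 and 2 exceeded every moderate WS bird. TLR3, an endosomal sensor of double-stranded RNA, measured 95.1, 142, 132 and 210.0 in severe WS and 57.4, 72.0 and 111 in moderate WS, a difference of 0.72 ± 0.47 (adjusted p = 0.712). BF1, a class I molecule of the major histocompatibility complex and the brightest member, spread from 38625 to 136665 in severe WS and from 11082 to 181270 in moderate WS. The level of the list was -0.06, 0.35, 0.06 and 0.42 in severe WS replicates 1 to 4, against -0.27, 0.06 and 0.31 in moderate WS, and its row difference was of the opposite sign, at -0.24. Its median lay between 0.14 and 0.31 when single arrays were left out.

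Markers of macrophages and granulocytes had a median of -0.21, with 16 of 19 lower and none past the unadjusted threshold in either direction. CD74, the invariant chain of class II molecules and the brightest marker, measured 59822, 106257, 84909 and 104562 in severe WS and 67258, 112920 and 138861 (lowest, median and highest) in moderate WS, a difference of -0.28 ± 0.24 (adjusted p = 0.783). MARCO, a scavenger receptor, had 80.2, 159, 81.1 and 109.6 in severe WS and 72.0, 277 and 800.5 in moderate WS. Birds of one group differed more than the groups: the macrophage level was -0.74, 0.54, -0.76 and -0.09 in severe WS replicates 1 to 4 and -0.95, -0.03 and 0.83 in moderate WS. The median was -0.51 without severe WS replicate 2 and 0.01 without moderate WS replicate 3, so that its direction depended on single birds. Lysosomal genes, with 29 of 39 lower and a median of -0.16 (-0.09 without moderate WS replicate 3 and -0.11 without severe WS replicate 3), and complement and coagulation genes, with 16 of 23 lower and a median of -0.21 (0.00098 without severe WS replicate 3 and -0.04 without severe WS replicate 1), lay on the same side. The macrophage and complement lists share C1QB, which is the median gene of both, so that their medians are the same value. The row differences were -0.20 for macrophage markers, -0.01 for lysosomal genes and 0.13 for complement and coagulation genes. Lipid uptake and adipocyte genes as a list had 13 of 30 higher, a median of -0.07 and a row difference of -0.21. The unadjusted threshold was passed by 2 as higher (6.67%, beside 4.16% of all genes) and 0 as lower (beside 3.23%). The defining adipocyte markers had summed intensities of 20765.5 to 38874.1 in severe WS and 35095.5 to 61171.6 in moderate WS over 4 of 5 markers, PPARG having failed the signal filter.

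The contractile apparatus was little different after quantile normalization. Fast fibre genes had a median of 0.01 over 12 genes (0.29 with 75th percentile scaling, -0.02 to 0.04 with single arrays left out). ACTN2, which crosslinks actin in the Z disc, was the exception, with 166286, 160512, 174840 and 184867 in severe WS and 188447, 198736 and 232282 (lowest, median and highest) in moderate WS. The groups did not overlap, and the difference was -0.20 ± 0.10 (adjusted p = 0.618). Slow and cardiac contractile genes had a median of 0.23, which turned to -0.15 without severe WS replicate 2, to -0.28 with no slide term and to -0.18 with the authors' normalized intensities. Their level was -0.41, 1.26, -0.79 and 0.17 in severe WS replicates 1 to 4 and -0.72, -0.17 and 1.39 in moderate WS, so that single birds of both groups stood high. The row difference of this list was 0.14. SGCD, the delta-sarcoglycan of the dystrophin complex, gave one of the smallest unadjusted p values (1.82e-04, adjusted p = 0.487), with 2042, 1881, 2400.1 and 2357 in severe WS and 2120, 3008 and 3422 in moderate WS and a difference of -0.54 ± 0.10. All 4 of its probes lay on the lower side. SNTB1, a syntrophin of the same complex, differed by -0.76 ± 0.31, while the list as a whole had a median of -0.07, or 0.01 with 75th percentile scaling. CAPN3, the muscle calpain, stood higher without overlap, with 7914, 5478, 5375 and 6161 in severe WS and 1578, 4353 and 4671 in moderate WS (0.58 ± 0.26, adjusted p = 0.592). Of the 22 calpains and atrophy ligases among which it was listed, 9 were higher and 13 lower. The median of that list was -0.11 (-0.02 without moderate WS replicate 3).

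Myogenic regulators lay on the higher side, with 17 of 27 higher, a median of 0.17 and 2 past the unadjusted threshold as higher (7.41%, beside 4.16% of all genes). The median was 0.08 without severe WS replicate 2. ID3, an inhibitor of basic helix-loop-helix factors, had 2148, 2651, 1311 and 1463 in severe WS and 510.4, 1073 and 1666 (lowest, median and highest) in moderate WS, a difference of 0.57 ± 0.17 (adjusted p = 0.515). The higher values were those of severe WS replicates 1 and 2. HEYL, a target of Notch, measured 652, 1025, 990.0 and 1028 in severe WS and 331, 651 and 1691 in moderate WS, a difference of 0.77 ± 0.31 (adjusted p = 0.582). Moderate WS replicates 5 and 6, at 1518 and 1691, exceeded every severe WS bird. Without the slide term the mean intensities were close, at 924 in severe WS and 868 in moderate WS. MYOD1, the transcription factor that commits cells to muscle, had 28227, 22214, 18001 and 12706 in severe WS and 6879.6, 15426 and 22881 in moderate WS, a difference of 0.56 ± 0.30 (adjusted p = 0.643) beside a row difference of 0.45. The list median was -0.03 without severe WS replicates 1 and 2, and the row difference of the list was 0.15.

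Signalling families were mixed. Notch genes had a median of 0.11 over 22 genes, beside a row difference of -0.06. The unadjusted threshold was passed by 3 as higher (13.6%, beside 4.16% of all genes) and by 1 as lower (4.55%, beside 3.23%). DTX4, a ubiquitin ligase of the Deltex family that acts on Notch, had 2192, 2615, 2118 and 1953 in severe WS and 751, 1484 and 1846 (lowest, median and highest) in moderate WS, without overlap and with a difference of 0.55 ± 0.15 (adjusted p = 0.487). MAML1, a coactivator of Notch, was on the other side at -0.30 ± 0.10. The FGF family had a median of 0.08 with 4 of 21 past the threshold, all higher (19.0%, beside 4.16% of all genes). Its median was 0.04 without severe WS replicate 1 and 0.16 without severe WS replicate 2, and its row difference was 0.15. KLB, the coreceptor of endocrine FGFs, measured 475, 353, 278 and 252 in severe WS and 38.2, 165 and 301 in moderate WS, a difference of 0.74 ± 0.25 (adjusted p = 0.534) beside a row difference of 0.80. Wnt genes had a median of -0.04, which took either sign with single arrays left out (-0.10 to 0.10), and a row difference of 0.12. TCF7L1, a transcription factor of the Wnt pathway, had 687, 536, 526 and 605 in severe WS and 382, 397 and 467 in moderate WS, without overlap (0.43 ± 0.13, adjusted p = 0.519). Angiogenic and vascular tone signals lay lower, with 17 of 29 lower, a median of -0.18 and 5 past the threshold, all lower (17.2%, beside 3.23% of all genes). That median was -0.08 without severe WS replicate 2 and -0.29 without severe WS replicate 3, beside a row difference of -0.02 for the list. EDNRB, an endothelin receptor, measured 567, 293, 425 and 408 in severe WS and 300.5, 721 and 857 in moderate WS, a difference of -0.69 ± 0.26 (adjusted p = 0.559). PDGFD, a platelet-derived growth factor, differed by -0.52 ± 0.20, and PTGS1, a cyclooxygenase, by -0.58 ± 0.21.

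The largest single difference was that of NPTX2, a neuronal pentraxin, which was 6.73-fold lower in severe WS. It had 102, 138, 262 and 174 in severe WS and 236, 654 and 2376 (lowest, median and highest) in moderate WS. The difference was -2.75 ± 0.44 (unadjusted p = 2.72e-05, adjusted p = 0.451), only severe WS replicate 3 reached into the moderate range, and the row difference was -1.47. TP53I3, an oxidoreductase induced by p53, measured 44.9, 385, 46.9 and 295 in severe WS and 248, 393 and 449.9 in moderate WS, a difference of -1.85 ± 0.72 (adjusted p = 0.566). Severe WS replicates 1 and 3 were low, while the other two lay within the moderate range. DNAJC11, a mitochondrial DNAJ protein, had 75.8, 279, 183 and 155 in severe WS and 49.5, 58.7 and 93.7 in moderate WS. It was 2.79-fold higher (1.48 ± 0.28, unadjusted p = 1.67e-04, adjusted p = 0.487), with severe WS replicate 1 inside the moderate range. Without that bird its adjusted p was 0.0091 and its difference 1.86, and no other probe was called when any single array was left out. EMILIN3, a matrix glycoprotein, differed by 1.08 ± 0.31, with a row difference of 1.29. Others of the largest differences on the higher side were PLEKHA6 (1.07), BLOC1S1 (1.06), TTLL9 (1.03), LOC101748153 (1.07) and the pair LOC107052660 (1.53) and LOC770839 (1.47), whose intensities were so alike on all arrays that their probes may read the same transcripts. In the same order, the row differences were 0.14, 0.36, 0.91, 0.88, 0.73 and 0.70. On the lower side the others were FAM13A (-1.39), DPEP2 (-1.28), IMPG2 (-1.21), CADPS2 (-1.15), the coagulation factor F10 (-1.14) and the nucleoside diphosphate kinase NME3 (-1.11). Their row differences were -1.04, -1.12, 0.02, -0.62, 0.69 and -0.44. Those of TP53I3 and DNAJC11 were -0.42 and 0.17. The groups overlapped for every one of these 16 genes.

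**Figure D4:**
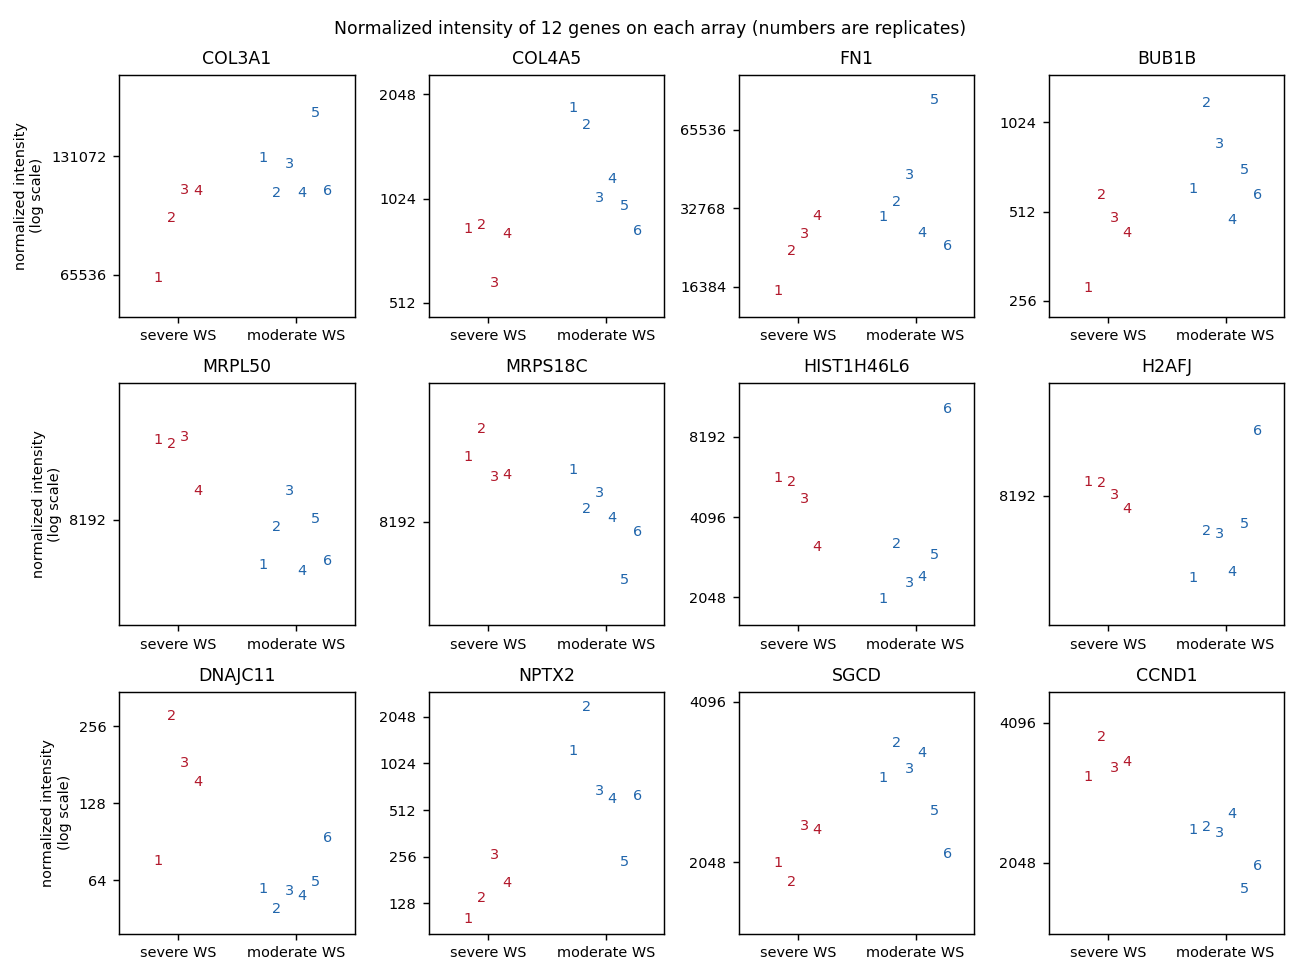
Normalized intensity (log axis) of 12 genes in each bird, severe WS left of moderate WS, with numbers for replicates. NPTX2 lies lower and DNAJC11 higher in severe WS, with overlap, while MRPL50 and CCND1 do not overlap between the groups.

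Genes that the study itself had singled out for severe against moderate WS were read from the same arrays. Neither their direction nor a lack of overlap between the groups is therefore independent evidence. NPTX2, described above with overlapping groups, is one that it names. The 9 others that were taken from its account of this comparison and passed the signal filter had groups without overlap, and their adjusted p values were 0.487 or more. Over all genes, 0.901% lay higher and 0.583% lower without overlap. Not all of the 9 are shown, and in PAN3 and PFKP the groups nearly touched. PAN3, a subunit of a poly(A) nuclease, had 832, 750.3, 879.6 and 846 in severe WS and 880.3, 895 and 227103 (lowest, median and highest) in moderate WS. In replicate 4 it was 227103, and the difference was -1.83 ± 1.25 with this bird and -0.20 without it. PFKP, an isoform of phosphofructokinase, measured 602, 713, 679 and 814 in severe WS and 814, 904 and 1793 in moderate WS (-0.34 ± 0.12). EPHB3, an ephrin receptor, measured 1143, 1424, 962 and 958 in severe WS and 383, 637 and 829 in moderate WS (0.64 ± 0.14), beside a row difference of 0.53. For the decapping enzyme DCPS the difference was 0.33 ± 0.11, for calmodulin (CALM) 0.27 ± 0.18, for the plexin PLXNA2 0.48 ± 0.13, for RASGRP3, an exchange factor for Ras, -0.57 ± 0.22 and for SLC25A6 -0.43 ± 0.20.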

How the data were processed

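Each array held RNA of one broiler's pectoralis major (integrity number above 7), labelled with a single dye after oligo(dT) priming. The authors deposited the output of Agilent Feature Extraction, in which the processed signal intensity of each spot is background-subtracted and not normalized between arrays. Of the deposited normalized intensities, the 17 columns of WS arrays served as an alternative, and 23 other columns of per-sample values were not used. The wooden breast arrays were not analysed here, and the 4 arrays labelled non-WS served only for the row difference.

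Control spots were left out, spots of one probe were averaged, and 25956 of 56401 probes were given a symbol (13912 genes) by matching accessions to a RefSeq gene table of the GRCg7b assembly. A probe entered the fit if it was unflagged, well above background and at a signal of 20 or more on all 17 WS arrays (4 severe, 6 moderate, 7 mild). After quantile normalization, log2 intensities were modelled on severity and slide (5 slides) in limma 3.58.1 (R 4.3.3), leaving 10 residual degrees of freedom. P values were adjusted after Benjamini-Hochberg over all probes. A DEG required an adjusted p of 0.05 or less and an absolute fold change of 1.2 or more, and the unadjusted threshold used the same limits with the unadjusted p. No spot was saturated. Precision was set by the number of birds. The p values are those of moderated tests, which set a difference against the spread between birds within the groups, mild WS included.

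The list level of a bird was the median over the genes of its log2 value minus the fitted slide effect and moderate level, in place of the planned deviation from the moderate birds of its slide. The gene lists, and the genes in them, were chosen with earlier results of these data known, and no list was tested. Genes named are the 8 largest differences in each direction at an unadjusted p of 0.05 or less with all 4 severe birds on one side, up to 3 members of smallest p and the brightest member of a list, and the genes the study names for this comparison. Others are marked as chosen for their values. The KCNMA1 transcript that the study names did not pass the filter, although another probe of the gene did. Some genes that this rule names are not reported here.

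Alternatives included normexp background correction (offset 50), 75th percentile scaling, the authors' normalized intensities, other detection filters, no slide term or a random slide block, a replicate block, the 10 arrays alone, the mean over the probes of a gene, the methods' test per probe and each array left out in turn. Fits of slides 1 and 2 alone and without severe WS replicates 1 and 2 were added after seeing the data. The batch step of the methods (ComBat) was not run, since moderate WS replicates 5 and 6 are alone on their slides among the 10 arrays. Simulated data with known changes were used to test the calls. Figures were drawn with matplotlib 3.10.9.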

Additional observations from a re-analysis of the deposited data

Results flagged for a closer look

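For 96 genes and 12 gene lists, the severe and the moderate WS birds were searched for 1 bird far from the rest of its group by Dixon's ratio. Of 216 groups searched 19 held such a bird, and chance gives about 1 in 20. Intensities are normalized intensities.

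In severe WS, replicate 1 had the lowest intensity of HEYL, a Notch target, at 652, with the other birds between 990.0 and 1028, and the highest of COL15A1, a basement membrane collagen, at 1184, with the others between 824 and 865. COL4A5 was 584 in severe WS replicate 3, with the others between 809.9 and 859, and MRPL50, of the mitochondrial ribosome, was 9244 in severe WS replicate 4, with the others between 11204 and 11549.

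In moderate WS, the value farthest from its group was PAN3, a subunit of the poly(A) nuclease, at 227100 in replicate 4, where the other birds measured 880.3 to 1048. Replicate 4 also had the highest TCF7L1, at 467 (others 382 to 410.2), and the lowest SNTB1, a dystrophin-associated syntrophin, at 174 (others 320.1 to 445). Replicate 2 had 924 for RASGRP3 (others 561 to 670.1) and 44733 for ATF4, the transcription factor of the integrated stress response (others 62926 to 77134).

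Moderate WS replicate 5 stood apart on both sides. NDUFS5, of complex I, was 70979 there (others 48123 to 52657) and FBLN1, a matrix protein, 1747 (others 535 to 810.1), whereas MRPL9 was 31206 (others 39969 to 43290), COL4A1 8185 (others 12546 to 14099) and CAPN3, the muscle calpain, 1578.5 (others 4043 to 4671). The list level of the complex I subunits was -0.17 in this bird and 0.02 to 0.11 in the others. Moderate WS replicate 6 had the highest PLIN2, of lipid droplets, at 29521 (others 5948 to 7586), the highest HIST1H46L6, at 10436 (others 2011 to 3250), and the highest H2AFJ, at 11104 (others 5588 to 7170). It had the lowest MMP15, a membrane metalloproteinase, at 231 (others 315 to 370.2).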

How the results depend on the processing

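No probe was called under the other settings, except 1 (DNAJC11, adjusted p = 0.0091) without severe WS replicate 1, so that leaving out single arrays gave 0 to 1 calls. Probes past the unadjusted threshold numbered 1195 to 1747 higher and 795 to 1339 lower when single arrays were left out, beside 1574 and 1124 in the fit over 17 arrays. They numbered 2645 and 1724 without a detection filter, where more probes were tested, 1003 and 724 with the methods' test per probe on 10 arrays, and 847 and 563 without severe WS replicates 1 and 2, where fewer arrays entered. With 75th percentile scaling 72.6% of them were higher, against 58.3%, and the cause was not tested. Deviations of same-numbered severe and moderate WS birds from their group means correlated at 0.19, -0.23, -0.17 and 0.02. Birds of unlike number correlated at -0.29 to 0.38. Slide effects were left in these deviations, so that they cannot settle whether replicate numbers pair the birds. The replicate block in place of the slide called 0 probes, with 1425 higher and 988 lower past the unadjusted threshold. The difference of HARS2 turned to -0.0058 without severe WS replicates 1 and 2, and the cause was not tested. The medians of the 12 lists plotted by bird moved by less than 1 SD between the severe WS birds, except in these cases. Without severe WS replicates 1 and 2, the medians were 0.092 for histones, -0.086 for collagens, -0.0090 for matrix glycoproteins and 0.089 for heat shock proteins, against 0.30, -0.36, -0.21 and 0.14 in the fit over 17 arrays. The heat shock median was 0.20 with 75th percentile scaling and 0.085 to 0.16 with single arrays left out. The SD was wide for the slow and cardiac contractile genes, whose median turned to -0.15 without severe WS replicate 2, to -0.46 without replicates 1 and 2, to -0.28 with no slide term, to -0.09 with the slide as a random block and to -0.18 with the authors' normalized intensities, and the macrophage median was 0.01 without moderate WS replicate 3. With 4 severe WS birds, all in one slide row, the median SE of a gene's log2 difference was 0.179.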

Other observations

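Outside the families above, genes of nuclear export and of amino acid breakdown had members that stood apart although their families did not. Nuclear pore and transport genes had a median of -9.6e-05 over 47 genes, yet 4 of them lay lower without overlap between the groups, where 0.583% of all genes did. XPO6, an exportin for actin, had 713, 799.8, 690.4 and 799.9 in severe WS and 832, 994 and 1086 (lowest, median and highest) in moderate WS, a difference of -0.36 ± 0.11 (adjusted p = 0.524). XPO1, the general exportin, measured 2504, 2477, 2653 and 2633 in severe WS and 2654, 2802 and 3074 in moderate WS (-0.16 ± 0.09, adjusted p = 0.648). In amino acid catabolism, with a median of -0.01 over 40 genes, 4 genes (10%, beside 3.23% of all genes) passed the unadjusted threshold as lower. As higher, 1 gene passed (2.5%, beside 4.16%). ASL, the argininosuccinate lyase that releases arginine, had 1058, 1500.1, 1266 and 1676 in severe WS and 1902, 2481 and 3032 in moderate WS. The groups did not overlap, and the difference was -0.82 ± 0.22 (adjusted p = 0.487) beside a row difference of -0.13. HDC, which makes histamine, differed by -1.24 ± 0.40 with a row difference of -1.19, and AASS, of lysine breakdown, by -0.52 ± 0.18.

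Potassium channel genes had a median of -0.16, with 18 of 27 lower, and their median was -0.07 without moderate WS replicate 3. Their row difference was 0.03. The unadjusted threshold was passed by 4 as lower (14.8%, beside 3.23% of all genes) and by 2 as higher (7.41%, beside 4.16%). KCNQ1, a voltage-gated channel, had 183, 105, 209.5 and 151 in severe WS and 179, 269 and 374 (lowest, median and highest) in moderate WS, a difference of -0.77 ± 0.25 (adjusted p = 0.532), and its accessory subunit KCNE3 differed by -0.67 ± 0.28 beside a row difference of -0.92. Among lipid droplet genes PLIN4 was on the higher side (0.85 ± 0.28) and PLIN2 on the lower (-0.76 ± 0.36). PLIN4 measured 2339, 2107, 2549 and 1801 in severe WS and 874, 1127 and 4439 in moderate WS, so that the highest moderate WS birds, replicates 5 and 6, exceeded all severe WS birds. EFNB2, an ephrin ligand of vessels and axons, was 1.99-fold higher, with 74.3, 35.8, 46.0 and 67.7 in severe WS and 21.2, 27.0 and 44.2 in moderate WS (0.99 ± 0.25, adjusted p = 0.487), at intensities near the filter limit of 20.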
